A study of Rattus norvegicus with 3 samples.

Results

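The AP-1 Fos and Jun family was followed across 3 oligonucleotide arrays of rat adrenal medulla. Its members were all probe sets whose platform annotation named Fos, Fosb, Fosl1, Fosl2, Jun, Junb or Jund and no other gene. This rule used no measured value. It found 13 probe sets for the 7 genes, out of 31042 gene probe sets and 14217 named genes on the array. Jun and Jund had 3 probe sets each, Fos and Fosl2 had 2 each, and Fosb, Fosl1 and Junb had 1 each.

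The samples were total RNA labelled as adrenal medulla from rats held in the cold for 1 day (2 arrays, called a and b) or for 7 days (1 array). The labels give no strain, sex, age or temperature, and do not name the animals, so the 1-day arrays may differ for technical reasons only. Animals without cold exposure were not analysed here. The data therefore compare 7 days with 1 day of cold, with a single array at 7 days.

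AP-1 is a pair of proteins joined through leucine zippers: a Fos protein with a Jun protein, or Jun proteins with each other. The pair binds DNA at AP-1 sites and cAMP response elements and turns nearby genes on or off. Fos, Fosb and Junb are textbook immediate early genes, whose transcripts appear within minutes of a stimulus and are soon destroyed, while Jund is made more steadily. In chromaffin cells, the catecholamine-releasing cells of the medulla, splanchnic nerve activity induces Fos and Jun proteins, and the promoters of Th, which encodes tyrosine hydroxylase, and Penk, the enkephalin precursor, hold sites that AP-1 can bind.

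Promoter sequences are shown for the 3 members whose window held the TGACG core that cAMP response elements share, since the family is both a reader and a target of such sites. They are RefSeq windows of assembly GRCr8, from 250 bases before to 50 after the transcription start, written 5′ to 3′ on the gene's strand. Capitals mark TGACG on either strand, and in Jund also the full element TGACGTCA, inside which TGACG lies on both strands.
Fosl1 (chr1:212183635-212183934, plus strand): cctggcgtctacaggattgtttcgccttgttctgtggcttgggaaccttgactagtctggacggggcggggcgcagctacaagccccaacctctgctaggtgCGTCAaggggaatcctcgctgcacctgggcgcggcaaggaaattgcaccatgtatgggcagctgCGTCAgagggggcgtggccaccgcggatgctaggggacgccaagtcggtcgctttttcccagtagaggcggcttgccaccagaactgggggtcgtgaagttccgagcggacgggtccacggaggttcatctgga
Junb (chr19:40080876-40081175, plus strand): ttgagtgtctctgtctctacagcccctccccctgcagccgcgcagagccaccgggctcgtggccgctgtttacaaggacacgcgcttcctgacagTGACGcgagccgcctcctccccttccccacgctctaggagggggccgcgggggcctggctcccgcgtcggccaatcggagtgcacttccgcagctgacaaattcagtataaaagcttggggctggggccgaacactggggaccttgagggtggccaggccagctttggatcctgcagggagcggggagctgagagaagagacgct
Jund (chr16:18769722-18770021, minus strand): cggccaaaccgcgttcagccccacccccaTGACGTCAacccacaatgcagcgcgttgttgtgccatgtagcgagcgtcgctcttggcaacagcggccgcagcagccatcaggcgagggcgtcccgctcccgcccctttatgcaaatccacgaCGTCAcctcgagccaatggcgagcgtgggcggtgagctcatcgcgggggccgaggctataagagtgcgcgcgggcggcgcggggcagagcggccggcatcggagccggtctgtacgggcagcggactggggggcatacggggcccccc
Windows were matched for 5 of the 7 genes. The Fosb window begins from a transcript start 322 bases inside the gene record, so it may not be the gene's promoter and was left out of the family counts, which cover the 4 windows of Fosl1, Fosl2, Junb and Jund. The full element TGACGTCA was found in Jund, where it began 221 bases before the start, and in 1.83% of all 33469 windows. A TGACG core stood 98 bases before the start in Jund, 155 in Junb, and 148 and 84 in Fosl1, and 21.2% of all windows held at least 1 core on either strand. The AP-1 site TGACTCA was in 0 of the 4 windows and in 4.63% of all. The CArG box, which serum response factor binds, was in 0 of the 4 and in 1.64% of all. The letters TATAAA stood in 1 of the 4, Junb, 49 bases before the start on the gene's strand, and in 14.2% of all windows on either strand. GC content ran from 62.3% in Fosl1 to 70.7% in Fosl2, and the median of all windows was 51.7%. A match of letters is a description and not a measured binding site.

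The values are linear intensities as deposited, already summarised per probe set and scaled, and differences are on the scale log2(intensity + 16), on which the pseudocount shrinks differences of dim probe sets. The brighter 15521 gene probe sets, whose mean log2 value reached the median of 9.60, were tested. Of the 13 family probe sets 10 passed, at least 1 for each gene. The 1-day arrays were unlike each other: over the probe sets tested, their log2 differences had an SD of 1.43, while those of the 7-day array from array b had an SD of 0.39. The 3′ to 5′ ratio of beta-actin probe sets, a measure of RNA integrity, was 231 for array a, 6.11 for array b and 8.87 at 7 days. Each family value is therefore given against each 1-day array separately, and the part of RNA quality in the differences was not tested. Of 10 listed chromaffin cell markers, 9 had a probe set annotated to them alone and 9 passed the filter. The filter acts on the mean of the 3 arrays and does not show presence on each. The marker Slc18a1 read 1390 on 1-day array a, where the median of gene probe sets was 1583. Genes of the adrenal cortex passed the filter too, with Star, which carries cholesterol into mitochondria, at 208111 on 1-day array b. In bulk RNA, fewer cells of a type and less RNA per cell cannot be told apart.

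**Figure D1:**
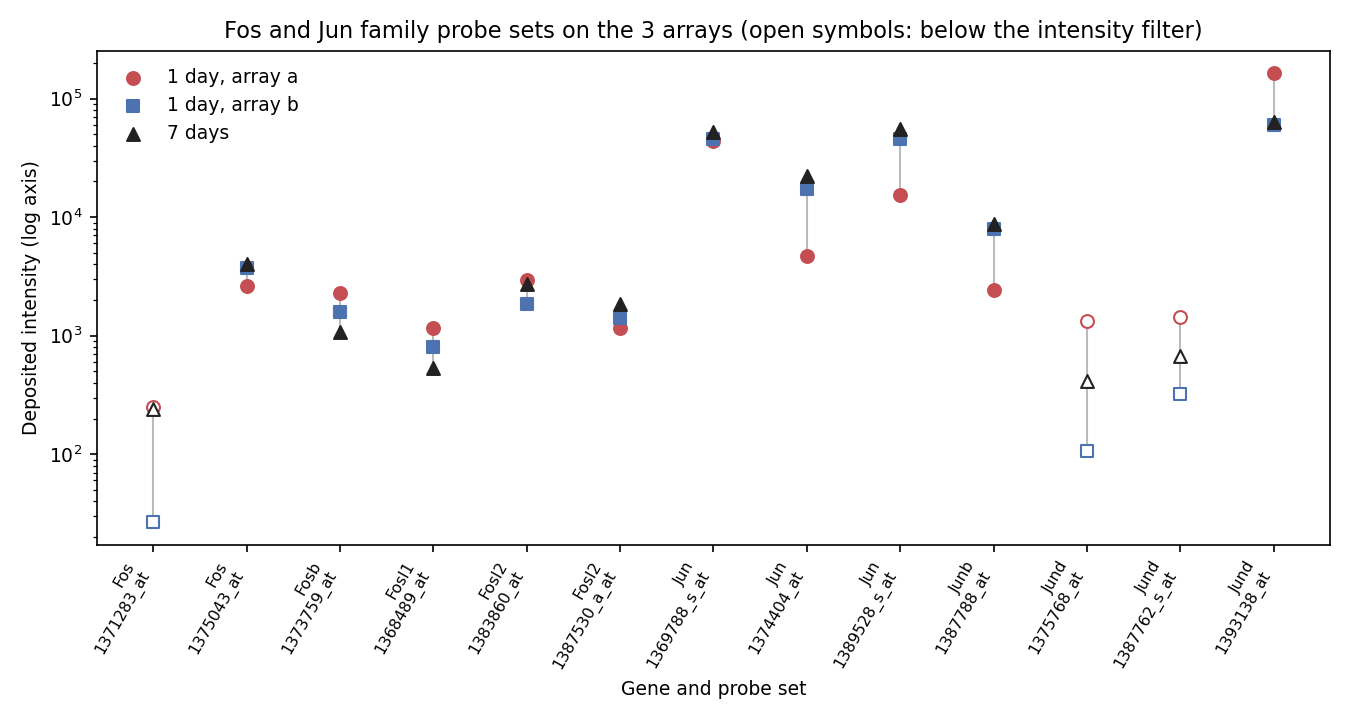
Deposited intensity (log axis) of the 13 Fos and Jun family probe sets at 1 day (array a, circles; array b, squares) and at 7 days (triangles); open symbols mark the 3 probe sets below the intensity filter, and grey lines span the arrays. On the 10 probe sets above the filter the triangles lie less than 2-fold from the squares, though on Fosl2 (1383860_at) nearer to the circle. Fosb and Fosl1 are lowest at 7 days, and Fosl2 (1383860_at) and Jund (1393138_at) are lowest on 1-day array b.

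On the deposited scale, Fosb and Fosl1 read lower at 7 days than on both 1-day arrays, though Fosl1 stood above array a with 3 other scalings and Fosb with 1. Fos, Jun and Junb read higher than on both, though Fos and Junb stood below array b with median centring and Jun (1369788_s_at) below array a with 2 scalings. On the probe set of highest mean, Fosl2 and Jund lay between the 1-day arrays. With quantile normalisation, median centring or the intensity trend removed, Fosl2 stood above both instead, and with the first and second of these Jund stood below both. None of these differences passed the test. In limma's comparison of 7 days with 1 day, 0 of 15521 probe sets were called (0%), 70 had an unadjusted p under 0.05, and the 10 family probe sets had unadjusted p from 0.177 to 0.828 and adjusted p = 1.00. The SEs of their log2 differences ran from 0.90 to 2.50. With 1 residual degree of freedom, from the 1-day pair, limma's prior degrees of freedom were infinite. Each SE therefore comes from the spread of the 1-day arrays over all probe sets of like intensity, scaled for 2 arrays against 1. That spread is assumed for the 7-day array too, and is not the gap between the 1-day values of the single probe set.

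Fos, the founding member and a partner of Jun proteins, read 2646 and 3711 at 1 day (arrays a and b) and 4000 at 7 days with probe set 1375043_at. The 7-day array was highest, and the difference from array b was small beside the gap between the 1-day arrays. At 1 day the log2 level was 11.62 ± 0.34 (SD, n = 2), and at 7 days it was 11.97. The 7-day array stood 1.51 times as high as array a and 1.08 times as high as array b.
The other Fos probe set, 1371283_at, read 249, 26.7 and 242 on the same arrays, so 1-day array b alone was low. It lay below the filter and was not tested. The log2 difference of the 7-day array from array b was 2.60, a size class (at least 2-fold higher) that held 27.9% of all probe sets below the filter. The Fos probe sets thus placed 1-day array b in different positions, near the 7-day value on the brighter and lowest on the dimmer.

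Fosb, whose protein and its truncated form ΔFosB accumulate in nervous tissue under repeated stimulation, read 2271 and 1580 on 1-day arrays a and b and 1068 on the 7-day array. The 7-day array was the lowest of the 3, at 0.676 times array b and 0.470 times array a. The 1-day level was 10.90 ± 0.37 (log2, SD, n = 2) against 10.08 at 7 days, and limma's difference was -0.82 ± 1.14 (SE, adjusted p = 1.00).
Fosl1, which encodes Fra-1, a Fos protein without the strong activation domain of Fos, read 1170 and 806 at 1 day and 533 at 7 days. It had the same order of arrays as Fosb and almost the same steps, at 0.661 times array b and 0.456 times array a. The 1-day level was 9.95 ± 0.37 (log2, SD, n = 2) and the 7-day level 9.10. Fosl1 was close to the filter (mean log2 9.67 against 9.60), and fell below it with quantile normalisation.
The place of Fosb and Fosl1 below array b held under each scaling tried, with Fosb at -0.74 to -0.46 and Fosl1 at -0.76 to -0.54. Their place below array a did not. Relative to array a, Fosl1 stood at 0.29 with quantile normalisation, 0.10 with median centring and 0.11 with the intensity trend removed, and Fosb at 0.13 with that centring.

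Fosl2, which encodes Fra-2, another Fos protein without that activation domain, read 2931 and 1866 at 1 day and 2752 at 7 days with 1383860_at. Here 1-day array b was low, and the 7-day array and array a were nearly level, at a ratio of 0.939. The 1-day level was 11.20 ± 0.46 (log2, SD, n = 2) and the 7-day level 11.43. The second Fosl2 probe set, 1387530_a_at, read 1150, 1423 and 1836 on the 3 arrays in the same order and was highest at 7 days. Its log2 level at 1 day was 10.34 ± 0.21 (SD, n = 2). Both probe sets were higher at 7 days than on array b, by 1.47 and 1.29 times, and they disagreed on which 1-day array was the higher. Fosl2 stood above array b under each scaling tried (0.37 to 0.56 on 1383860_at and 0.18 to 0.37 on 1387530_a_at). Relative to array a, 1383860_at turned from -0.09 to 0.12 with quantile normalisation, 1.12 with median centring and 0.09 with the intensity trend removed, while 1387530_a_at was positive under each.

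Jun, whose protein can pair with itself as well as with Fos proteins, had 3 probe sets, of which 1374404_at and 1389528_s_at are annotated to the same source sequence and are not independent. With 1369788_s_at Jun read 44134 and 45498 at 1 day and 52484 at 7 days. This was the closest agreement between the 1-day arrays in the family, at 15.45 ± 0.03 (log2, SD, n = 2) against 15.68 at 7 days.
With 1374404_at it read 4673, 17211 and 22169, and with 1389528_s_at it read 15358, 45436 and 55318. On these probe sets 1-day array a was low, at 0.272 and 0.338 times array b, where 1369788_s_at gave 0.970. All 3 probe sets were highest at 7 days, with ratios to array b of 1.15, 1.29 and 1.22. Against array b the Jun difference was positive under each scaling tried on all 3 probe sets, though only 0.02 for 1369788_s_at with median centring. Against array a, 1369788_s_at turned from 0.25 to -0.22 with quantile normalisation and to -0.41 with the intensity trend removed, while the other probe sets remained at 1.22 or more.

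Junb, an immediate early member that can oppose Jun at some promoters, read 2404 and 7923 at 1 day and 8719 at 7 days. Array b and the 7-day array lay close together, at a ratio of 1.10, and array a was far below both, so the 1-day level was 12.10 ± 1.21 (log2, SD, n = 2) beside 13.09 at 7 days. Limma's difference of 7 days from 1 day, 0.99 ± 0.92 (SE from limma, adjusted p = 1.00), came down to 0.14 without array a.
Jund, the steadily expressed Jun member, read 163827 and 59335 at 1 day and 64010 at 7 days with 1393138_at. Array a was the high one here, opposite to Junb, and array b and the 7-day array differed by a ratio of 1.08. The 1-day level was 16.59 ± 1.04 (log2, SD, n = 2) and the 7-day level 15.97. Limma's difference of 7 days from 1 day was -0.62 ± 1.09 (SE), and without array a it was 0.11. Relative to array b the Jund difference turned to -0.01 with quantile normalisation and -0.07 with median centring.
The other Jund probe sets were below the filter. They read 1323, 106 and 412 (1375768_at) and 1451, 320 and 672 (1387762_s_at), with the 7-day array between the 1-day arrays on both. Their ratios to array b, 3.90 and 2.10, were thus well above the 1.08 of the bright probe set, in the dim range where 27.9% of probe sets read at least 2-fold higher at 7 days.

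**Figure D2:**
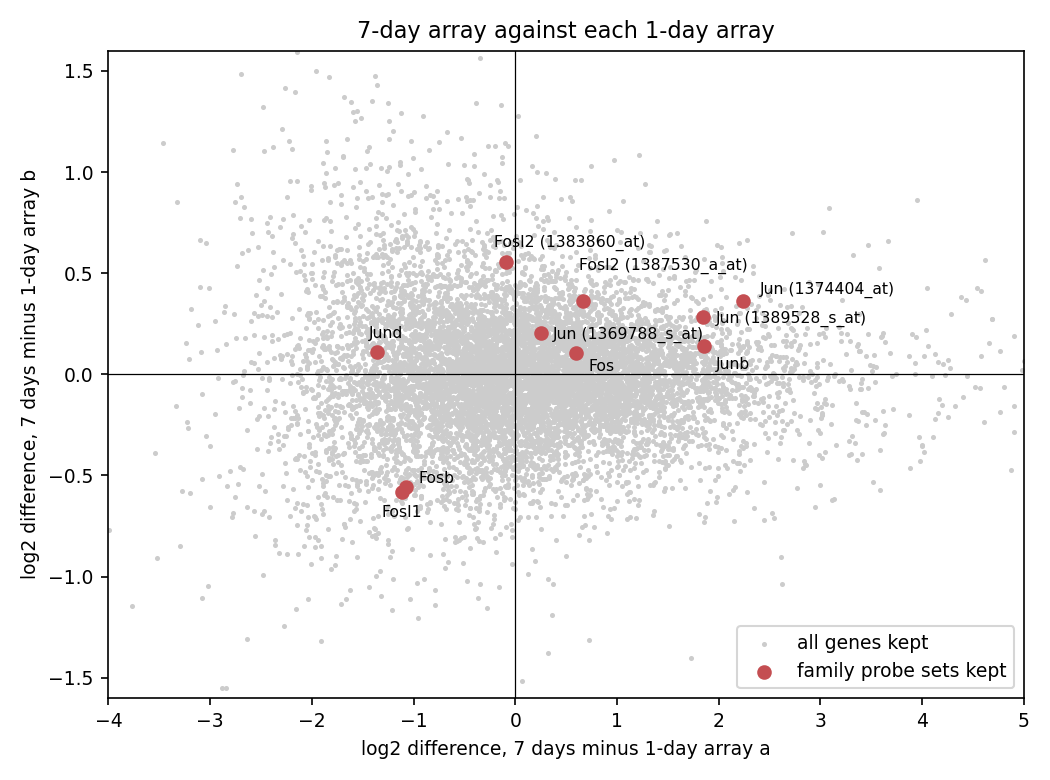
Log2 difference at 7 days relative to array a (horizontal) and array b (vertical) of 1 day for the 10 family probe sets above the filter (red) and for 9292 genes (grey), of which 27 lie outside the frame. Family values spread from -1.36 to 2.24 against array a and only from -0.58 to 0.56 against array b.

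Counts of members outside the 1-day pair are set beside the same counts over all genes as a description, with no test between them. Taking 1 probe set per gene, the one with the highest mean, 3 of the 7 members read above both 1-day arrays at 7 days, against 24.8% of 9292 genes, and 2 of 7 read below both, against 24.9%. Of the 10 probe sets tested, 6 were above both (22.4% of all probe sets tested) and 2 below both (25.3%). The 6 include 3 of Jun, so they stand for 4 genes.
Against 1-day array b alone, 5 of 7 members were higher at 7 days (48.6% of all genes), with a median difference of 0.11 beside -0.01 over all genes. That count depended on the scale. Centring each array on its median moved the median of all probe sets tested from 0.00 to -0.18. On that scale 2 of 7 members, Fosl2 and Jun, stood above array b, as did 24.5% of all genes. No family probe set among the 10 tested was at least 2-fold from array b (2.4% of all), and so 0 of 7 genes were (1.36% of all genes). Of all genes, 3.87% were at least as far below array b as Fosb, and 4.62% at least as far above as Fosl2.
Of the 7 members 3 were higher at 7 days than on 1-day array a (51.2% of all genes). With median centring, which moved the median of all probe sets tested from -0.10 to 1.12 relative to array a, 6 of 7 were, all but Jund (86.9% of all genes). On the deposited scale 6 of 10 probe sets were at least 2-fold from array a (42.8% of all probe sets tested). Of them 3 were higher and 3 lower at 7 days, against 19.7% and 23.1% of all probe sets tested. That even split of probe sets held on the deposited scale and with pseudocounts 1 and 64, and it counts 2 Jun probe sets of the same source sequence. Taking 1 probe set per gene, 1 of 7 members was at least 2-fold higher and 3 were lower, against 20.7% and 17.8% of all genes. Over the 10 probe sets, removing the intensity trend gave 4 higher and 1 lower. On that scale 21.3% of all probe sets tested were that far above and 15.4% that far below. Quantile normalisation also gave 4 higher and 1 lower, beside 28% and 16.9% of all. Median centring gave 7 higher and 0 lower, on a scale where 53.9% of all were that far above and 4.41% that far below. Between the 1-day arrays themselves 4 of the 10 were at least 2-fold apart (44.8% of all), and their median absolute log2 difference was 0.59 (0.88 over all probe sets tested), against 0.32 between the 7-day array and array b (0.20 over all).

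**Figure D3:**
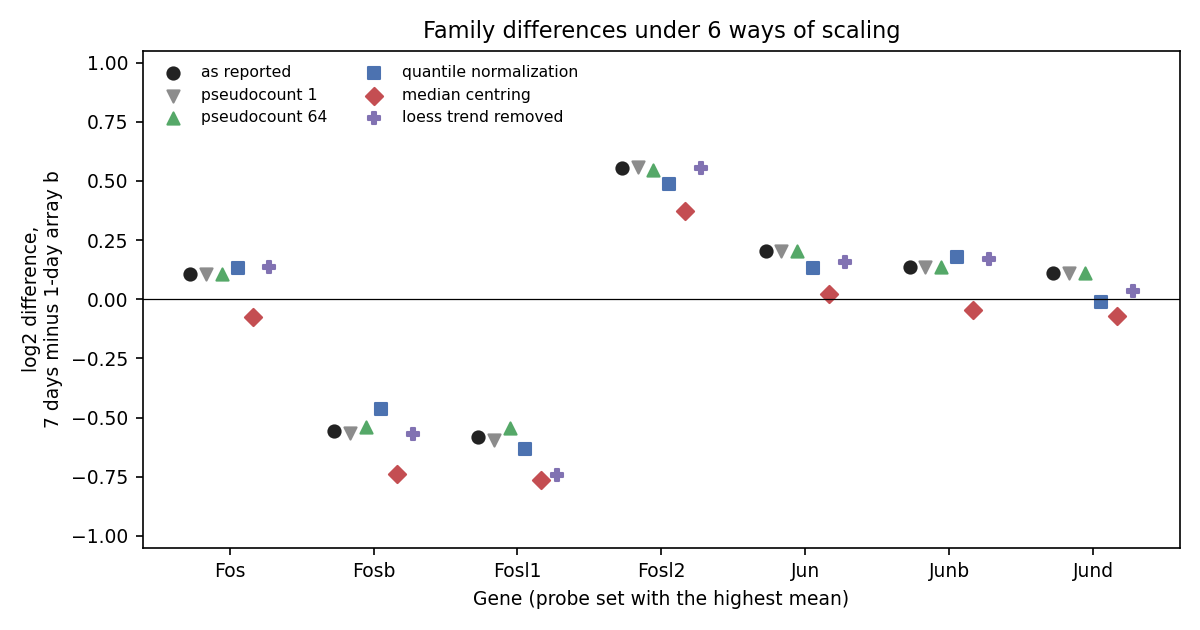
Log2 difference of the 7-day array from 1-day array b for each member's probe set of highest mean, as reported and with 5 other ways of scaling. Fosl2 and Jun stay above 0 and Fosb and Fosl1 below it with all 6, while Fos, Junb and Jund turn negative with median centring (diamonds) and Jund also with quantile normalisation.

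The patterns of the members over the 3 arrays were compared by the distance between log2 values centred on each gene's mean. Distances were taken on the deposited scale only. Fosb and Fosl1 were the closest pair in the family, at 0.02, and Junb and Jund the farthest, at 2.61. Among all 9292 genes on the deposited scale, Fosl1 was the nearest to Fosb, followed by Cyp2t1 (0.03) and Afg2b (0.03). Fosb was the second nearest to Fosl1, after Fam241b (0.01) and before Gpc6 (0.04).
With 3 arrays such closeness is common, and 132 genes lay within 0.2 of Fosb and 124 within 0.2 of Fosl1. The genes nearest to Fosl2 were Eaf2 (0.02), Tceanc2 (0.02) and Ap3m2 (0.03). Those nearest to Fos were Dnajc4, Cers6 and Mgat4b, and those nearest to Jun were Dynll2, Mrpl44 and Hsd17b12, with 764 and 697 genes within 0.2. Junb lay nearest to Gsto1, Selenop and Tra2a, and Jund to Hsp90ab1, Lsm11 and Sfmbt1.

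Genes around the family were taken from lists of partners, upstream kinases and factors, turnover and feedback genes, and AP-1 responsive genes. Among bZIP partners, which can pair with Fos or Jun proteins or compete for their sites, 13 of 15 had a probe set annotated to them alone and 8 passed the filter. At 7 days 4 read above both 1-day arrays and 1 below both, against 24.8% and 24.9% of all genes. The list median was 0.01 relative to array b beside -0.01 over all genes. Median centring left 0 of the 4 above both (20.1% of all genes), while loess detrending gave 2 (25.8%) and quantile normalisation gave 2 (28.5%). None of these scalings left a gene of the list below both, where 8.73%, 24.5% and 21.6% of all genes were. Atf3, a stress-induced partner of Jun, was the one below both, at 916 and 1541 at 1 day and 707 at 7 days. Maf, Mafg and Mafk stood above both, 0.05 to 0.18 above array b, differences that all lie within the shift of median centring. The other Mafg probe set stood at -0.04 relative to array b. Limma called 0 genes of these 4 lists, all with adjusted p = 1.00.

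Upstream of the family, serum response factor with its partners of the Elk group and CREB drive Fos transcription, and the JNK and p38 kinases (Mapk8 and Mapk14) phosphorylate the proteins or their regulators. Of 19 such genes 11 were measured above the filter. Of these, 6 read above both 1-day arrays (3 with median centring) and 1 below both, against 24.8% and 24.9% of all genes. With median centring 20.1% of all genes were above both. The list median was 0.08 relative to array b (-0.10 with median centring). Srf read 3967 and 3721 at 1 day and 4310 at 7 days, and Mapk14, Mef2d and Mef2a stood at 0.17, 0.20 and -0.22 relative to array b. The other Mef2a probe sets stood at 0.08, -0.16 and -0.37. Elk3, a factor of the Elk group that can repress Fos, had the largest difference from array b, at 8657 against 5934, but other Elk3 probe sets stood at 0.55 and -0.04. Crem, which encodes CREB-related activators and repressors, stood at 0.27, and at -0.16 to 0.07 on its 5 other probe sets.

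Turnover and feedback genes read lower at 7 days than on array b in 6 of 8 cases, against 4775 of all 9292 genes. With median centring these counts were 7 of 8 and 7016 of 9292. On the deposited scale the list median was -0.40 beside -0.01 over all genes. Zfp36, which encodes tristetraprolin, a protein that speeds decay of short-lived transcripts, read 3883 and 7938 at 1 day and 4355 at 7 days. Elavl1, whose protein HuR stabilises such transcripts, read 17940, 20212 and 12190, but other Elavl1 probe sets stood at 0.06 and 0.25 relative to array b. Fbxw7, a ubiquitin ligase subunit that marks Jun for destruction, read 3268, 1719 and 1224. Elavl1 and Fbxw7 were below both 1-day arrays, and Zfp36 lay between them. Against array a the list median was 0.02, with 4 of 8 genes higher (51.2% of all genes). That median turned to -0.34 after loess detrending and to -0.17 after quantile normalisation. The median relative to array b was negative under each scaling tried.

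Of 16 measured AP-1 responsive genes, 13 read lower at 7 days than on array b, as did 4775 of all 9292 genes. With median centring these counts were 15 of 16 and 7016 of 9292. On the deposited scale 11 read higher than on array a (51.2% of all genes). Of the 16, 2 stood above both and 4 below both, against 24.8% and 24.9% of all genes. The 2 became 0 with quantile normalisation (28.5% of all genes), 1 with median centring (20.1%) and 1 with the intensity trend removed (25.8%). The 4 became 0 with median centring, where 8.73% of all genes were below both. The list median was -0.25 relative to array b and 0.52 relative to array a, where all genes stood at -0.01 and 0.04. Ccl2, a chemokine gene, read 1000 and 1186 at 1 day and 727 at 7 days. Ccnd1, which drives entry into the cell cycle, and Cd44, an adhesion receptor gene, were also below both, at -0.25 and -0.31 relative to array b, and so was Vim. The other Ccnd1 probe sets stood at -0.01 and -0.39 relative to array b, the latter above array a by 0.29. On the deposited scale Th was among those above both, at 0.22 above array b. Penk read 14642 and 45064 at 1 day and 29224 at 7 days, between the 1-day arrays and at -0.62 relative to array b. Plaur, the urokinase receptor, had the largest drop from array b beside Ccl2, at 1558 against 957 (-0.69).
Cell type markers went both ways on the deposited scale, where 48.6% of all genes were higher than on array b. Relative to array b, 5 of 6 leukocyte markers (3 of 6 with quantile normalisation) and 4 of 4 fibroblast markers were lower at 7 days. Higher were 6 of 6 cortex markers and 6 of 9 chromaffin markers (2 of 9 with quantile normalisation). So were 3 of 4 endothelial markers (1 of 4 with median centring). Schwann and sustentacular cell markers were higher in 2 of 3 cases (1 of 3 with median centring or the intensity trend removed). The share of all genes above array b was 24.5% with median centring, 48.7% with the trend removed and 50.4% with quantile normalisation. The summed log2 level of the leukocyte markers was 61.83 and 66.81 on the 1-day arrays and 66.02 on the 7-day array, that of the fibroblast markers 50.05, 55.50 and 54.07, and that of the cortex markers 96.99, 98.23 and 100.66. None of these markers was at 0, and their part in the family and list differences was not tested.

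**Figure D4:**
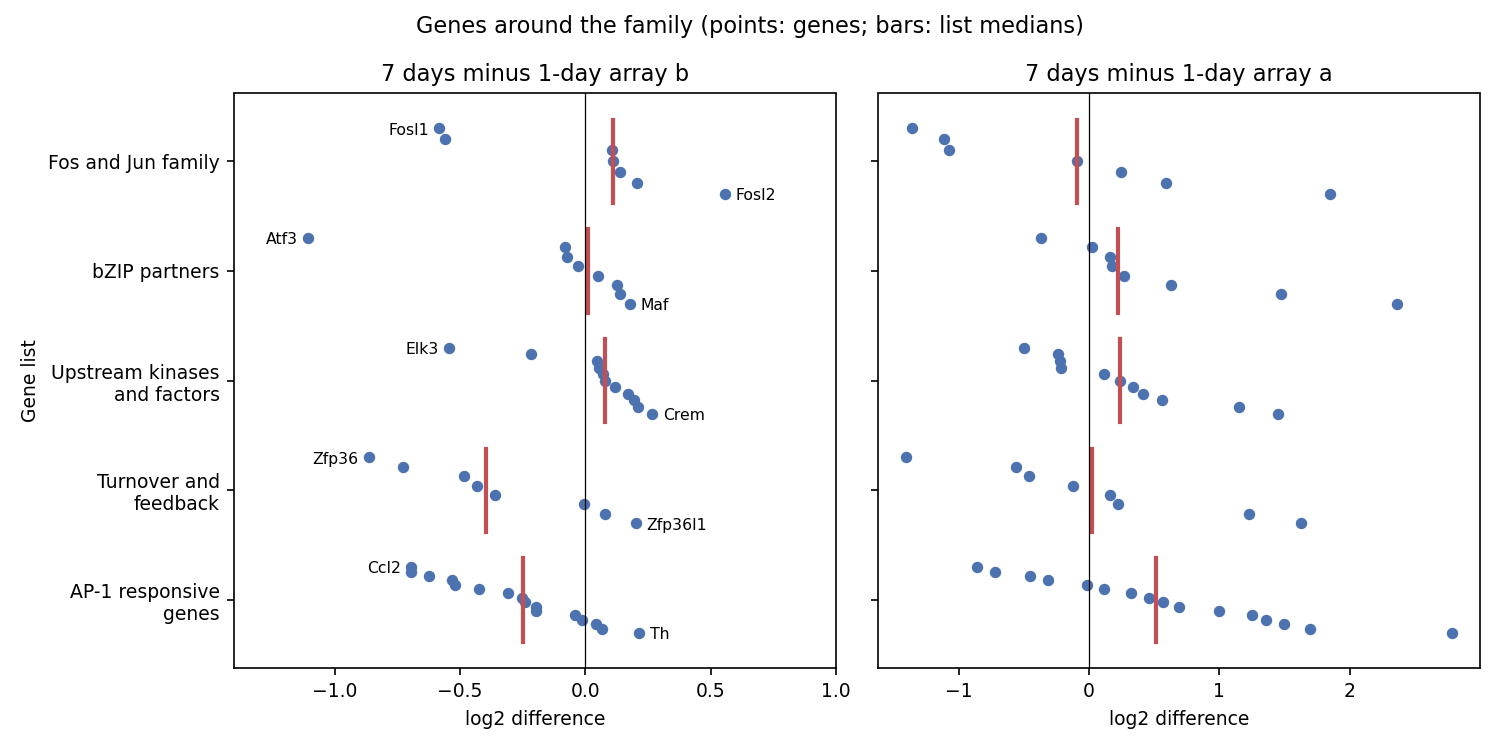
Log2 difference of the 7-day array from 1-day array b (left) and 1-day array a (right) for the measured genes of 5 lists; points are genes, red bars are list medians, and the lowest and highest gene of each list is named on the left. The turnover and responsive lists have medians of -0.40 and -0.25 on the left but 0.02 and 0.52 on the right.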

How the data were processed

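Per the labels, total RNA of rat adrenal medulla was measured on 3 arrays. Deposited values are linear intensities, which the authors had summarised per probe set and scaled; no software is named in the sources used here. The 2% trimmed mean was 2501 on each array, so values were used as scaled. Such scaling hides differences in total RNA. Having 3 arrays limits the precision. Controls (57 probe sets) were left out. The platform annotation named 1 gene for 20826 probe sets, several for 436 and none for 9780; RefSeq GRCr8 updated 20758 of the names.

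The test was limma 3.58.1 in R 4.3.3 (lmFit, eBayes with an intensity trend), two-sided, Benjamini-Hochberg adjusted over 15521 probe sets and called under 0.05. It was tested on simulated data with a smaller spread between arrays than measured here. Printed family values cover all probe sets. Other lists use the kept probe set of highest mean, and name up to 4 members farthest outside both 1-day arrays and the 2 farthest from array b; others were named after their values were seen. The family and the lists were chosen with earlier results of these data known. Alternatives were pseudocounts 1 and 64, quantile normalisation, median centring, loess trend removal (span 0.5), other filters, limma without trend or robust, gene means and leaving out each 1-day array. Python 3.11.15 with matplotlib 3.10.9 drew the figures.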

Additional observations from a re-analysis of the deposited data

How the results depend on the processing

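Limma called 0 probe sets in the comparison as reported and under each of its 10 alternatives. The number of members below both 1-day arrays, 2, became 1 with median centring (Jund) and 1 with the intensity trend removed (Fosb). It was 0 with the 75th percentile filter, which left Fosb, Fosl1 and Fosl2 out. With quantile normalisation it was again 2, but Fosb and Jund. The share of all genes below both was 24.9% as reported, 8.73% with median centring, 24.5% with the trend removed and 21.6% with quantile normalisation. The 5 members above array b became 4 with quantile normalisation, 4 with the 75th percentile filter and 2 with median centring. The share of all genes above array b was 48.6% as reported, 50.4% with quantile normalisation and 24.5% with median centring. When all of a gene's probe sets were averaged, also those below the filter, 1 gene, Fos, was at least 2-fold from array b, at 1.35. Its probe set below the filter, at 26.7 on array b, stood at 2.60 and the brighter one at 0.11. Of all probe sets below the filter, 27.9% were at least 2-fold above array b. Relative to array b, median centring turned Fos to -0.074, Junb to -0.044, Jund to -0.073, the bZIP partner median to -0.17 and the upstream median to -0.10, and quantile normalisation turned Jund to -0.011. Relative to the mean of the 1-day arrays, Jun turned to -0.042 with quantile normalisation and to -0.13 after loess, and the turnover median from -0.08 to 0.44 with median centring. Leaving out each 1-day array gave -0.090 to 0.56 for Fosl2 and -1.36 to 0.11 for Jund, and with 1 array on each side no test or count of calls could be had. Relative to array a, an outcome added after seeing the data, the 3 members above became 6 with median centring; that centring turned Fosb to 0.13, Fosl1 to 0.10 and Fosl2 to 1.12, quantile normalisation turned Fosl2 to 0.12, Jun to -0.22 and the turnover median to -0.17, loess turned Fosl1 to 0.11, Fosl2 to 0.086, Jun to -0.41 and that median to -0.34, and averaging probe sets turned Fosl2 to 0.29. Other values of single members kept their sign (Fosl1 fell below the filter with quantile normalisation); the cause of the changes was not tested. No paired analysis was possible because the groups share only the replicate letter a. Dim probe sets limit 1 probe set of Fos and 2 of Jund.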
